A study of Microcebus murinus with 18 samples.

Results

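The GADD45 stress genes described here are 8 genes, the paralogs GADD45A, GADD45B and GADD45G, the GADD45-binding protein GADD45GIP1, and 4 genes of the same damage and stress responses, CDKN1A, PCNA, PPP1R15A and DDIT3. Every probe set that the array's annotation assigns to one of these symbols was taken, which gave 14 probe sets among the 54613 that are not controls. GADD45G was chosen by its low signals in the AD-like animals, so its difference in that contrast is given as a description with no test. The other 7 genes were added because they are related to it by family, binding or pathway.

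The signals came from the temporal cortex of 18 grey mouse lemurs (*Microcebus murinus*), a small primate that can develop amyloid plaques with age. RNA of each animal was hybridized to 1 human Affymetrix HG-U133 Plus 2.0 array. The young adult group held 4 females and 2 males, the healthy old group 7 females and 3 males, and the AD-like group 2 old females, which the study set apart because their brains had amyloid plaques and cortical atrophy. No animal was treated or genetically altered, and the labels give age only as a category. The study reports a higher mean age for the AD-like than for the healthy old animals, with overlapping spreads. Age and pathology therefore cannot be told apart between these 2 groups. Both AD-like animals being female and so few also limits what their group can stand for.

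GADD45 proteins are small acidic proteins without enzymatic activity that are induced by DNA damage, osmotic stress and growth arrest. They bind and modulate other proteins, among them the MAP3K4 kinase upstream of p38 and JNK, the CDK inhibitor p21 (CDKN1A) and the replication clamp PCNA, and they take part in active DNA demethylation. In neurons GADD45B and GADD45G are known as activity-regulated genes. PPP1R15A (GADD34) and DDIT3 (CHOP, GADD153) belong to the integrated stress response. Their GADD names come from the same screens for growth arrest and DNA damage genes, not from sequence similarity to the GADD45 family.

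A probe set was kept for testing when its third-highest signal over the 18 arrays was at least 147.5. The rule uses no group labels, but with 2 AD-like arrays a probe set bright in those animals alone could not pass, while one dim in them alone could, as GADD45G, so counts of lower and higher AD-like signals among kept probe sets can lean toward lower. Of the 14 probe sets 7 were kept, from 6 genes: GADD45A 203725_at, GADD45B 209305_s_at, GADD45G 204121_at, CDKN1A 202284_s_at, PPP1R15A 202014_at and 37028_at, and DDIT3 209383_at. The other 7 were dim, namely the remaining 3 of GADD45B, all 3 of GADD45GIP1 and the 1 of PCNA. Human probes can bind lemur RNA poorly where the sequences differ, so a dim probe set does not show that a gene was silent, and signals of different probe sets are not set against each other. Whether mismatches explain the dim probe sets was not tested. All 8 genes are present as 1 protein-coding gene each in the RefSeq annotation of the lemur assembly Inina_mat1.0.

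Some arrays stood apart from the rest. The mean signal was 151 to 164 on 5 arrays (young adult M1 and M2, old M1 and M2, and AD-like F2) and 175 to 236 on the other 13. The cut at 5 arrays was drawn after the data were seen, and young adult F4, at 175, was the next array above it. Of the 5 low arrays, 4 are from males, and 4 (all but young adult M1) lack the poly-A control RNA that the other 14 arrays carry, with a dap control signal of at most 19.0 against at least 334. The 2 AD-like animals therefore lie on different sides of this split, and each is also given singly below. The log2 ratio of 3′ to 5′ GAPDH signal, used as a measure of RNA integrity, averaged 0.31 ± 0.20 for young adults (SD, n = 6), 0.59 ± 0.53 for the old group (SD, n = 10) and 0.47 ± 0.20 for the AD-like group (SD, n = 2). The same ratio of ACTB ordered the groups differently, at -2.38 ± 0.54, -1.92 ± 1.04 and -1.48 ± 1.44. It was -2.50 in AD-like F1 and -0.46 in F2, where that of GAPDH was 0.32 and 0.61. What these human control probes show of lemur RNA integrity was not tested. Of the markers of cortical cell types, all 10 for neurons were kept, but GFAP and S100B of astrocytes and 8 of 10 for microglia were not.

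GADD45G had low signals in both AD-like animals, 21.6 in F1 and 16.5 in F2. In the young adults its signal was 181, 272, 139 and 54.5 in females F1 to F4 and 144 and 113 in males M1 and M2. In the old animals it ran from 104 to 343 with a median of 208. The AD-like signals were thus below all 16 of the other animals, of which young adult F4 was the nearest. Young adults averaged 150 ± 72.7 (SD, n = 6), the old group 209 ± 65.2 (SD, n = 10) and the AD-like group 19.1 ± 3.60 (SD, n = 2).

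**Figure D1:**
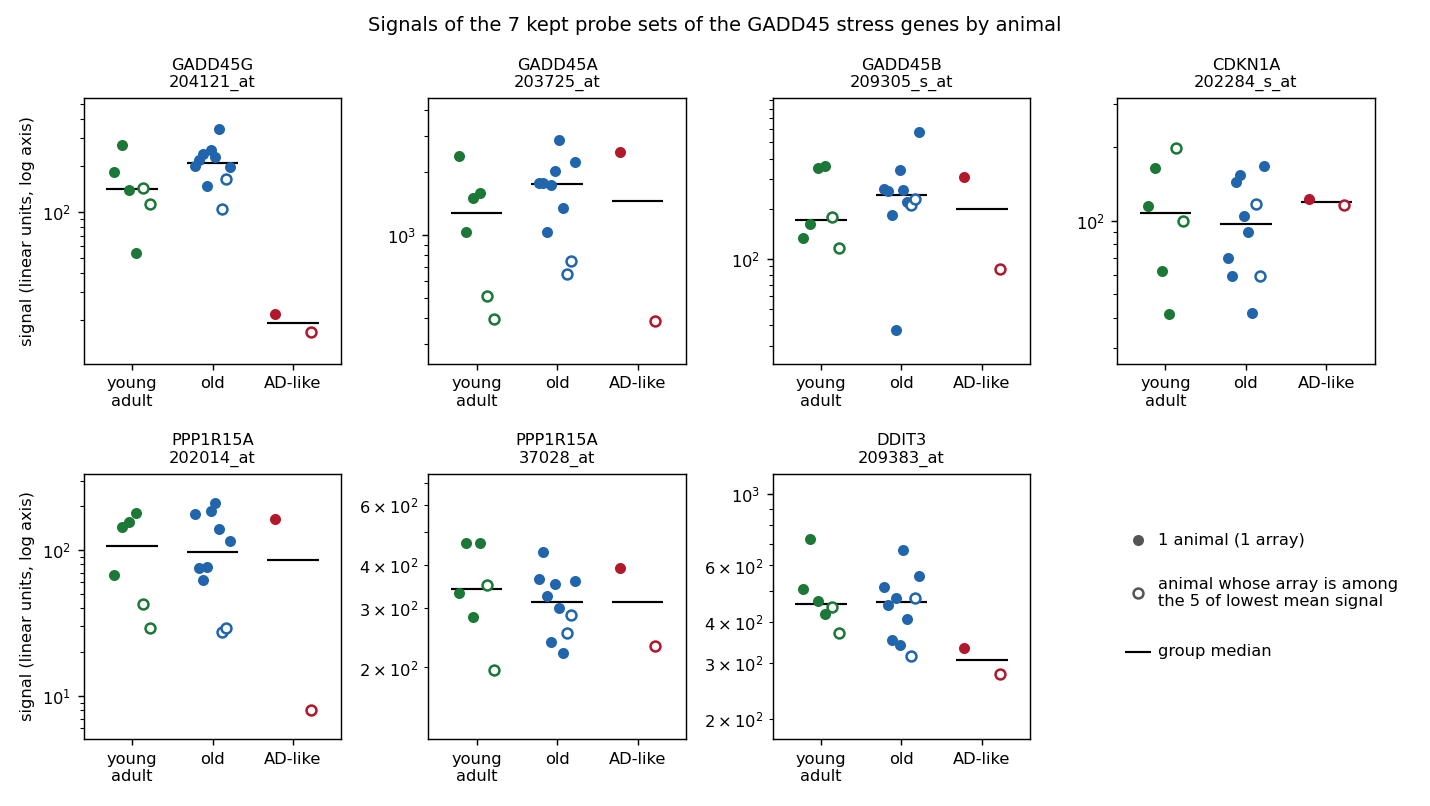
Signal of each of the 7 kept probe sets (linear units on a log axis, a separate axis for each probe set) in every animal, grouped as young adult (n = 6), old (n = 10) and AD-like (n = 2). Points are animals, open points are the 5 arrays of lowest mean signal, and lines are group medians; GADD45G is low in both AD-like animals, whereas GADD45A and PPP1R15A 202014_at are low on all 5 open points.

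Placed among all probe sets of its own array, GADD45G stood at percentile 34.9 in AD-like F1 and 23.2 in AD-like F2. It stood at 52.9 to 90.0 in young adults and 71.7 to 92.1 in old animals. Its AD-like signals were also below the median signals of those arrays, 44.26 and 52.96. At that height a signal holds much background, so the fold between groups depends on how low signals are treated. On the log2(signal + 16) scale used here the difference of the AD-like from the old mean was -2.63 (SE 0.41) and from the young adult mean -2.13 (SE 0.43). With 1 in place of 16 the difference from old animals was -3.33, with 50 it was -1.87, and as the log2 ratio of mean linear signals it was -3.45.

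Taken singly, the AD-like animals gave nearly the same GADD45G difference from the old mean, -2.52 for F1 and -2.73 for F2. The difference was present on both sides of the split of the arrays. It was -2.66 for F1 from the 8 old animals whose arrays carry poly-A RNA (148 to 343). For F2 it was -2.18 from old M1 and M2, which like F2 lack that RNA (104 and 163). GADD45G was chosen by its low signals in these animals, so low values in both follow from the choice. Their likeness, and the difference on both sides of the split, are therefore a description and add no support. Both signals were also below the median signals of their arrays, where the offset draws log2 values together. Of the neuron markers, 9 of 10 were above the old mean in F1 (median log2 difference 0.12) and 9 of 10 were below it in F2 (median -0.57). Over all 8819 genes with a kept probe set, 4670 were above it in F1 and 4731 below it in F2. Against old animals of like poly-A status 4 of 10 markers were lower in F1 (median 0.03) and 9 of 10 in F2 (median -0.52), beside 4336 and 4638 of all genes. The summed signal of the neuron markers was 56883 in F1 and 25534 in F2, 18234 to 65109 in young adults and 37377 to 64881 in old animals. GADD45G was low in both AD-like animals. In bulk tissue, fewer cells that express a gene and less RNA per cell cannot be told apart.

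GADD45G differed between old animals and young adults by 0.50 (SE 0.27) on the log2 scale, higher in the old animals. Its unadjusted p in the limma fit over all kept probe sets was 0.0816 and its adjusted p 0.849. The groups overlapped, since young adult F2 (272) was above 9 of the 10 old animals. The difference was 0.62 in females and 0.21 in males. Its unadjusted p fell below 0.05 on leaving out young adult F2 (0.0205, log2 difference 0.68) or old M1 (0.0366, log2 difference 0.60), with adjusted p of 0.532 and 0.692. Leaving out young adult F4, the lowest of the young adults, took the difference down to 0.28, and with the animals' numbers as a block it was 0.30. The median GADD45G signal was 113 on the 5 arrays of lowest mean signal and 199 on the other 13, the AD-like animals included. Young adult M1 and M2 and old M1 and M2 are among those 5. Over the alternatives other than leaving out each animal, which include leaving out those 5 arrays, the difference ran from 0.30 to 0.62.

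GADD45A, the paralog that p53 induces after DNA damage, was bright in all animals and separated the AD-like pair. Its signal was 2511 in AD-like F1 and 386 in AD-like F2. Young adults ran from 396 to 2398 with a median of 1273, and old animals from 651 to 2841 with a median of 1754. F1 was above all 6 young adults and 9 of 10 old animals, and F2 was below all 16. The log2 difference from the old mean was 0.76 for F1 and -1.89 for F2.

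The group mean of GADD45A in AD-like animals therefore describes neither of them. Its log2 difference was -0.56 (SE 0.65) from old animals, adjusted p = 0.971, and -0.06 (SE 0.68) from young adults, adjusted p = 1.00 (limma). Against old M1 and M2, which also lack poly-A RNA, F2 differed by -0.83, and against the other 8 old animals F1 differed by 0.50. Without F1, the difference of F2 from old animals had an unadjusted p of 0.0256 and an adjusted p of 0.562, under the assumption that a lone animal varies like those of the other groups.

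GADD45A followed the split of the arrays throughout the series. On the 5 arrays of lowest mean signal it ran from 386 to 748, and on the other 13 from 1036 to 2841, with no overlap. This holds for a cut drawn after the data were seen. With the next array, young adult F4 (1584), on the low side the ranges would overlap. All arrays were scaled to a trimmed mean of 100, with the outer 2% on each side left out. GADD45A stood at percentiles 93.7 to 98.8 among the probe sets of its arrays. Whether the scaling has a part in its split was not tested. The same separation of the 5 arrays was seen for 2.63% of all kept probe sets (392), and for 2 of the 7 kept members, GADD45A and PPP1R15A 202014_at. Males made up 4 of the 5 low arrays, and the remaining male, old M3, had a GADD45A signal of 2242. What the split of the arrays and sex each contribute to the GADD45A level was not tested.

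Between old animals and young adults the log2 difference of GADD45A was 0.51 (SE 0.43), adjusted p = 0.891 (limma). Without young adult M2 it was 0.24, without M1 0.30, and without the 5 arrays of lowest mean signal 0.18. It was 0.13 in females and 1.17 in males, where the 2 young adult males and 2 of the 3 old males had arrays of low mean signal. The difference between the sexes had an unadjusted p of 0.107 and an adjusted p of 0.984 in the limma interaction fit. None of the 7 kept members had an unadjusted p under 0.05 for this interaction. Over all kept probe sets 712 did, and 0 passed after adjustment.

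GADD45B, the paralog induced by synaptic activity and NF-kappa-B, was kept by 1 of its 4 probe sets. For 209305_s_at the AD-like animals gave 309 (F1) and 87.1 (F2). Young adults ran from 116 to 363 with a median of 170. Old animals ran from 37.5 to 579 with a median of 242. F2 was below all 6 young adults but above old F4, and F1 lay within both groups.

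The spread of GADD45B within the old group came largely from 2 animals, F4 (37.5) and M3 (579), as the other 8 lay between 185 and 341. Old F4 also had the highest GAPDH 3′ to 5′ log2 ratio of all animals, 1.56, but its part in the GADD45B signal was not tested. The log2 difference from old animals was -0.39 (SE 0.60) for the AD-like mean, adjusted p = 0.974, and that of old animals from young adults was 0.16 (SE 0.40), adjusted p = 0.965 (limma). The 3 probe sets of GADD45B that were not kept reached at most 158 (207574_s_at, in young adult M1), and they did not share a direction in the AD-like animals. On 207574_s_at F1 was below all old animals (6.72 against 8.43 to 120), and on 209304_x_at it was above all of them (41.9 against 11.1 to 31.3).

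GADD45GIP1, which binds GADD45 proteins and is a component of the large subunit of the mitochondrial ribosome, was dim on its 3 probe sets. On 225495_x_at the AD-like animals gave 69.1 and 175, young adults 7.54 to 104 and old animals 8.15 to 103. F2 was above all 16 other animals and F1 was within both groups. Tested without the filter, the log2 difference from old animals was 1.50, with an unadjusted p of 0.0230 and an adjusted p of 0.821 (limma). The gene's other probe sets did not share this: on 212889_x_at the AD-like signals were 14.2 and 19.6, and on 212891_s_at 38.0 and 7.25, all within the range of the old animals. An ending in _x_at marks a probe set that may bind several transcripts.

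PCNA, the sliding clamp of DNA polymerases, read 8.89 in AD-like F1 and 16.6 in F2. They were 5.69 to 62.7 in young adults and 3.88 to 68.4 in old animals. PCNA stood at percentiles 4.00 to 58.4 among the probe sets of its arrays, and no difference between groups is read from it.

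CDKN1A, which encodes the CDK inhibitor p21 and is a main p53 target, was close in the AD-like animals, 122 in F1 and 116 in F2. Young adults ran from 41.5 to 199 with a median of 107, and old animals from 41.9 to 168 with a median of 97.1. Both AD-like signals lay inside both ranges. The log2 difference from old animals was 0.31 (SE 0.46, 95% interval -0.65 to 1.27), adjusted p = 0.974 (limma). Old animals differed from young adults by -0.11 (SE 0.31, 95% interval -0.75 to 0.53), adjusted p = 0.970 (limma).

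PPP1R15A, the stress-induced regulatory subunit that directs protein phosphatase 1 to eIF2-alpha, gave different pictures on its 2 kept probe sets. On 202014_at the AD-like signals were 162 (F1) and 8.06 (F2), against 29.2 to 180 in young adults and 27.3 to 209 in old animals. F2 had the lowest signal of the series and F1 was within both groups. On 37028_at the AD-like signals were 392 (F1) and 231 (F2), young adults ran from 196 to 465 and old animals from 221 to 438. There both lay within the range of both groups.

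The 202014_at probe set followed the split of the arrays as GADD45A did. It ran from 8.06 to 42.9 on the 5 arrays of lowest mean signal and from 62.9 to 209 on the other 13, while 37028_at overlapped (196 to 350 against 221 to 465). Within the arrays lacking poly-A RNA, F2 differed from old M1 and M2 by -0.88 on 202014_at and by -0.20 on 37028_at. The AD-like mean differed from the old mean by -0.73 (SE 0.69) on 202014_at, adjusted p = 0.971, and by -0.02 (SE 0.34) on 37028_at, adjusted p = 0.996 (limma). Without AD-like F1, the 202014_at difference had an unadjusted p of 0.0168 from old animals and 0.0239 from young adults, with adjusted p of 0.503 and 0.652.

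DDIT3, a transcription factor induced by endoplasmic reticulum and amino acid stress, was the 1 kept member besides GADD45G that was below the old mean in both AD-like animals. Their signals were 333 (F1) and 277 (F2). Young adults ran from 370 to 722 with a median of 456, and old animals from 315 to 672 with a median of 464. Both AD-like animals were below all 6 young adults, F2 was below all old animals and F1 was above 1 of the 10.

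The DDIT3 difference did not pass the test. The log2 difference was -0.53 (SE 0.31, 95% interval -1.18 to 0.12) from old animals, unadjusted p = 0.107 and adjusted p = 0.971 (limma). It was -0.63 (SE 0.33, 95% interval -1.32 to 0.06) from young adults, unadjusted p = 0.0713 and adjusted p = 1.00 (limma). The sizes were alike on both sides of the split, -0.45 for F1 against the 8 old animals with poly-A RNA and -0.46 for F2 against the 2 without. The unadjusted p from young adults was under 0.05 with sex as a covariate (0.0499), among females alone (0.0420) and with the animals' numbers as a block (0.0322), where the adjusted p was 0.608, 0.595 and 0.360. The numbers are not taken to pair the animals. The block by number also raised the count of all kept probe sets under 0.05 between AD-like and old animals, so its p adds no support. Old animals and young adults differed in DDIT3 by -0.10 (SE 0.21), adjusted p = 0.959 (limma).

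**Figure D2:**
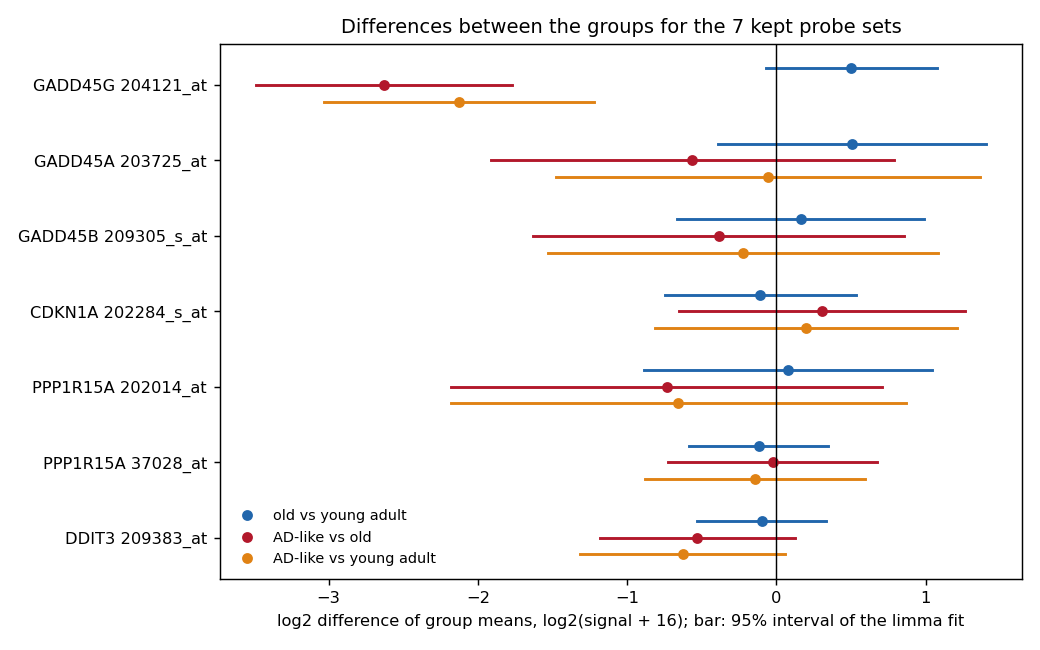
Log2 differences of group means for the 7 kept probe sets on the log2(signal + 16) scale, for old against young adult, AD-like against old and AD-like against young adult animals, with bars for the 95% interval of the limma fit. GADD45G was selected on the AD-like contrast, so its bars there are no test; every other interval includes 0, and those of the AD-like contrasts are wide, as for GADD45A (-1.91 to 0.78 against old animals).

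Across the members, the counts were read against all kept probe sets. Between old animals and young adults 0 of 7 member probe sets had an unadjusted p under 0.05 in the limma fit, where 5.92% of all kept probe sets did, and 0% passed after adjustment. Between AD-like and old animals 0 of 6, GADD45G left out, had an unadjusted p under 0.05 against 4.88% of all. After adjustment 0.00671% of all passed, which is 1 probe set, GADD45G itself, and nothing is read from it as the gene was selected on this contrast. Between AD-like animals and young adults the count was 0 of 6 against 4.34%, and 0% passed after adjustment. The unadjusted test of linear signals named in the study's methods also gave 0 members in each contrast.

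Counting animals instead, 0 of the 6 member probe sets other than GADD45G had both AD-like signals below all old animals, as 1.62% of all kept probe sets had. Below all young adults there was 1 of 6, DDIT3, against 2.95% of all. With 2 AD-like arrays the precision of every AD-like value is limited. The contrasts share animals and are not independent of each other.

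**Figure D3:**
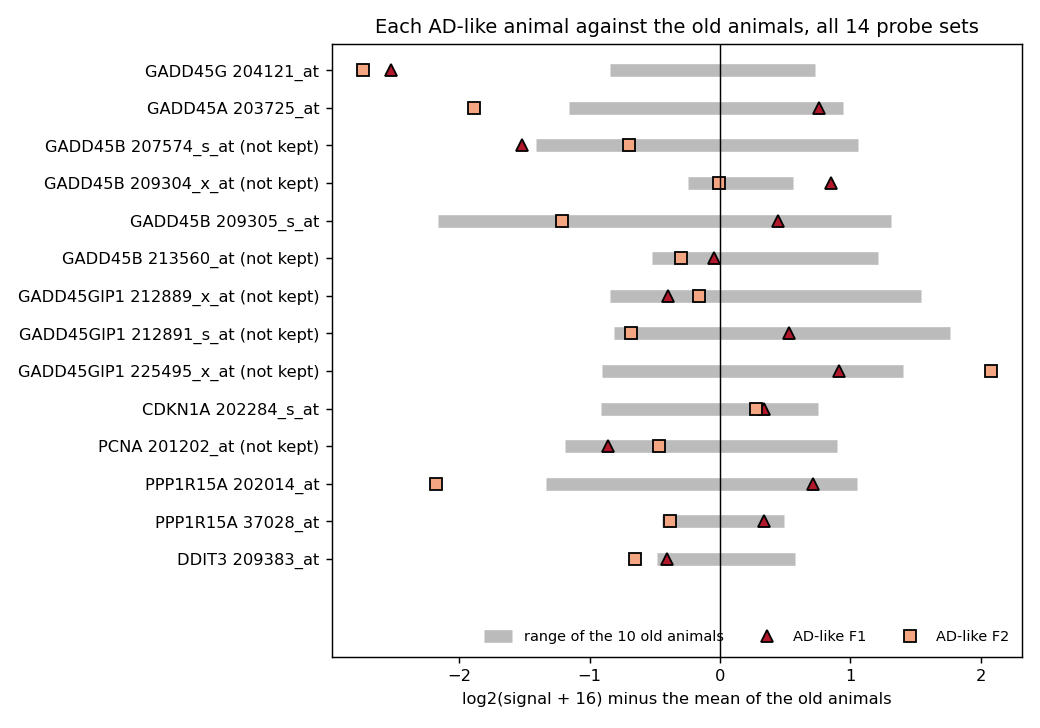
Difference of each AD-like animal from the mean of the 10 old animals, in log2(signal + 16), for all 14 probe sets, with grey bars for the range of the old animals. Both animals lie far to the left for GADD45G (-2.52 and -2.73), they lie on opposite sides of 0 for GADD45A (0.76 and -1.89) and PPP1R15A 202014_at (0.71 and -2.18), and they lie together inside the grey bar for CDKN1A (0.34 and 0.27).

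Among the healthy animals, the members were compared in pairs over the 12 young adult and old animals outside the 5 arrays of lowest mean signal. Over all 16 such animals GADD45A and PPP1R15A 202014_at fall into separate clusters, so no correlation is given there. Of the 21 pairs 0 passed an adjusted p of 0.05, and 0 had an unadjusted permutation p under 0.05. The lowest p was that of GADD45B with PPP1R15A 202014_at, with Pearson's r of 0.52 (permutation p = 0.0760, adjusted 0.903), Spearman's rho of 0.55 (permutation p = 0.0659, adjusted 0.929) and r of 0.64 without the 2 animals farthest from the median of GADD45B. For GADD45A with PPP1R15A 202014_at r was 0.19 (permutation p = 0.558, adjusted 0.903), rho was 0.28 (permutation p = 0.380, adjusted 0.929) and r without the 2 farthest animals was -0.01. With 12 animals a weak relation is not detectable.

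**Figure D4:**
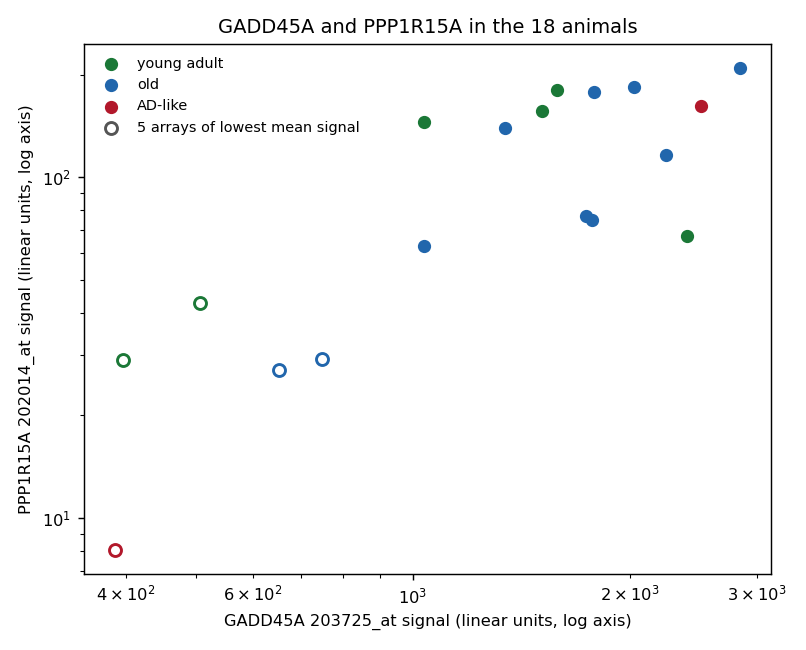
Signal of PPP1R15A 202014_at against GADD45A 203725_at in all 18 animals (linear units, log axes), coloured by group. The 5 arrays of lowest mean signal, drawn as open points, lie apart at the lower left, at GADD45A signals of at most 748 and PPP1R15A signals of at most 42.9.

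The genes whose pattern was most like that of GADD45G over all 18 arrays were ZNF655, MAST2, ZER1, HTR4 and SLC22A7, with Pearson's r of 0.84, 0.83, 0.82, 0.81 and 0.81 among 8813 genes. Likeness over these arrays includes the contrast that GADD45G was selected on, so their low AD-like signals are a description. ZNF655, a zinc finger protein, averaged 271 ± 105 (SD, n = 10) in the old group and read 28.8 in both AD-like animals. HTR4, a serotonin receptor, averaged 341 ± 133.1 (SD, n = 10) in the old group and read 59.6 in AD-like F1 and 41.9 in AD-like F2. Over the 16 young adult and old animals alone the closest were GPAA1 (r = 0.90), ETFB, TFEB and AARS1 (each 0.89) and CAMKK2 (0.88), a different set of names. Their signals in AD-like F1 were 364, 455, 247, 470 and 522 in that order, all within the range of the old animals, and in F2 they were 65.0, 152, 257, 591 and 94.2, of which that of CAMKK2 was below it. Pairs of genes on the same arrays share any difference in array brightness and RNA quality.

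The pathway genes around the members were counted beside all 8819 genes, where the old against young adult contrast had 317 genes up and 202 down at an unadjusted p under 0.05. For AD-like against old it had 104 up and 335 down, and for AD-like against young adult 95 up and 288 down. Of 18 partners and effectors of GADD45 proteins 8 were kept, and 0 had an unadjusted p under 0.05 in any contrast. The median log2 difference was 0.16 for old against young adult animals, where the median of all 8819 genes was 0.05. MAP3K4, the kinase that GADD45 proteins activate, differed between AD-like and old animals by 0.61 (SE 0.38, unadjusted p = 0.129 in the limma fit). Of 29 genes of the p53 and DNA damage response 10 were kept, again with 0 at an unadjusted p under 0.05. In old animals 9 of these 10 had a higher mean than in young adults, with a median log2 difference of 0.23, beside 55.6% of all genes.

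The integrated stress and unfolded protein response, to which PPP1R15A and DDIT3 belong, was measured by 24 of 31 genes. The AD-like mean exceeded the old mean for 18 of them, beside 45.8% of all genes. The median log2 difference was 0.27 beside -0.05 for all genes, and 0 had an unadjusted p under 0.05. Singly, 17 of 24 were above the old mean in F1 and 17 of 24 in F2, although DDIT3 was below it in both. Of all 8819 genes, 4670 were above it in F1 and 4088 in F2. Within the arrays of like poly-A status the median was 0.28 for F1 and 0.09 for F2, for which the reference was only 2 old animals, both male. Between AD-like animals and young adults CHAC1, a glutathione-degrading target of this response, differed by 1.78 (SE 0.70, unadjusted p = 0.0185, adjusted p = 1.00 in the limma fit). Between old animals and young adults ATF5 differed by -1.14 (unadjusted p = 0.00901) and ASNS by 0.51 (unadjusted p = 0.0470), both with an adjusted p of 0.837.

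Among the cyclins, CDKs and CDK inhibitors that act with CDKN1A, 12 of 19 genes were kept. CCND1, cyclin D1, read 18.6 in AD-like F1 and 19.9 in F2 against means of 123 in old animals and 77.6 in young adults. Its log2 difference from old animals was -1.90 (SE 0.55, unadjusted p = 0.00261, adjusted p = 0.699 in the limma fit), and old animals differed from young adults by 0.80 (unadjusted p = 0.0434, adjusted p = 0.837). RBL2, a relative of the retinoblastoma protein, read 26.6 in F1 and 15.3 in F2 against means of 138 in old animals and 76.8 in young adults. It differed from old animals by -1.84 (SE 0.75, unadjusted p = 0.0223, adjusted p = 0.952) and from young adults by -0.88 (unadjusted p = 0.274 in the limma fit). The AD-like signals of CCND1 and RBL2 were below the median signals of their arrays, so these folds depend on how low signals are treated.

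Of the genes of clamp loading, replication and repair that act with PCNA, 13 of 20 were kept. RFC5, a clamp loader subunit, was 1.36 above old animals in the AD-like mean (unadjusted p = 0.0442, adjusted p = 0.971) and differed between old animals and young adults by -1.27 (unadjusted p = 0.00713, adjusted p = 0.837). FEN1, a flap endonuclease that PCNA recruits, was 99.2 in F1 and 18.8 in F2 against a young adult mean of 138, a log2 difference of -1.22 (unadjusted p = 0.0235, adjusted p = 1.00). Of the 49 proteins of the large mitochondrial ribosomal subunit, to which GADD45GIP1 belongs, 32 genes were kept. MRPL48 read 4.68 in AD-like F1 and 27.7 in F2 against means of 126 in old animals and 138 in young adults. Its differences were -2.13 from old animals (SE 0.43, unadjusted p = 6.58e-05, adjusted p = 0.196) and -2.34 from young adults (adjusted p = 0.222). MRPL33 differed by 1.05 between AD-like animals and young adults (unadjusted p = 0.0432, adjusted p = 1.00). Between old animals and young adults MRPL39 differed by 0.77, MRPL45 by 0.60 and MRPL54 by -0.93, each with an adjusted p of 0.837 in the limma fit.

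The immediate early genes, which like GADD45B and GADD45G respond to neuronal activity, were measured by 15 of 18 genes. In AD-like animals 11 were lower and 4 higher than in old animals, where 45.8% of all genes were higher. The median log2 difference was -0.57 beside -0.05 for all genes. DUSP1, a phosphatase of p38 and JNK, had an unadjusted p under 0.05 (log2 difference -1.27, SE 0.47, unadjusted p = 0.0143, adjusted p = 0.909). Its signal was 211 in F1 and 31.7 in F2 against an old mean of 248. The shift of the list was also uneven between the AD-like animals, with a median of -0.03 in F1 and -0.80 in F2, or -0.17 and -0.40 against old animals of like poly-A status. For F2 these were only 2 animals, both male. GADD45G was low in both and GADD45B in F2. Of the cell type markers, ITGAM of microglia differed by 0.77 between old animals and young adults (unadjusted p = 0.0485, adjusted p = 0.837), while P2RY12, the other microglial marker kept, differed by -0.89 (unadjusted p = 0.0910). TEK of endothelium differed by 1.72 between AD-like and old animals (unadjusted p = 0.0436, adjusted p = 0.971), with 73.1 in F1 and 356 in F2 against an old mean of 54.1, while PECAM1 and FLT1 differed by -0.41 and -0.10. Neither list thus had 1 direction, and the part of these markers in the member signals was not tested.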

How the data were processed

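Temporal cortex RNA of 18 lemurs was hybridized to human HG-U133 Plus 2.0 arrays, and the authors computed signal intensities with GCOS 1.2. The deposited intensities are linear, background-corrected and scaled by array; no other normalization was applied. Of 54675 probe sets 62 controls were left out, and the 14911 with the brightest third-highest signal were kept, as many as the study's detection filter left; detection calls were not used here. Log2(signal + 16) was fitted with limma 3.58.1 (R 4.3.3; lmFit, eBayes) for 3 groups together, with Benjamini-Hochberg adjustment over all kept probe sets. Correlations used Python 3.11.15 with numpy 2.4.6 and scipy 1.17.1 and 100000 permutations.

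Probe sets were named by the platform annotation, and pathway genes by their brightest kept probe set with 1 symbol. All member probe sets are named, from each list up to 4 genes with the smallest unadjusted p under 0.05 per contrast, and the 5 genes most like GADD45G over 18 and over 16 arrays. MAP3K4 was named after its value was seen. The members and lists were chosen with earlier results of these data known. Alternatives were other offsets, quantile normalization, median centring, no filter, sex as a covariate, females only, the replicate block, the poly-A set as a block or alone, a trended robust fit, the test of the methods, and leaving out each animal. Leaving out the 5 arrays of lowest mean signal and a GAPDH ratio covariate were added after seeing the data, as was leaving those arrays out of the correlations between members.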

Additional observations from a re-analysis of the deposited data

Results flagged for a closer look

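GADD45B 209305_s_at had a signal of 37.5 in old F4, far below the other 9 old animals, of which the nearest was at 185. On the log2(signal + 16) scale, on which this was judged, the gap was 0.549 of the range of the group. The 14 probe sets were examined in the young adult and old groups, 28 groups in all, and this was the 1 value that stood apart. Chance flags about 1 in 20 groups, so 1 flag is no more than chance would give.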

How the results depend on the processing

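The AD-like difference of GADD45G from old animals has a sign that the choice of the gene fixes, so only its size is given: it was -3.33 with an offset of 1, -1.87 with 50, -3.45 as a log2 ratio of linear means, and -2.73 to -2.52 on leaving out each animal. By construction, a larger offset shrinks the fold of a low signal. The counts of member probe sets at an unadjusted p under 0.05, all 0 as reported, became 1 for AD-like against old animals without the filter (GADD45GIP1 225495_x_at) and 1 for AD-like against young adult animals with sex as a covariate, with females only and with the replicate block (DDIT3 each time). On leaving out each animal they were 0 to 1 for old against young adults (GADD45G, without young adult F2 or old M1), 0 to 2 for AD-like against old (GADD45A and PPP1R15A 202014_at, without AD-like F1) and 0 to 1 for AD-like against young adults (PPP1R15A 202014_at, without AD-like F1). No member was called after adjustment in any of these, with GADD45G left out of the AD-like contrasts.

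Signs that turned were those of differences near 0 or of members that differed between the AD-like animals; beyond the arrays left out, the cause was not tested. For old against young adults, GADD45B gave -0.23 with females only, -0.18 with the replicate block and -0.040 without the 5 arrays of lowest mean signal. CDKN1A gave 0.031 with females only and 0.13 without those arrays, and PPP1R15A 202014_at gave -0.091 with females only, -0.37 with the replicate block and -0.098 without them. On the arrays with poly-A RNA, and without the 5 arrays, the AD-like arm is F1 alone, assumed to vary like the other groups. There the difference from old animals was 0.50 under both settings for GADD45A, 0.44 for GADD45B, 0.39 for PPP1R15A 202014_at and 0.29 for 37028_at, which was 0.12 with the poly-A set as a block. In the same order the difference of F1 from young adults was 1.00 and 0.68 for GADD45A, 0.47 and 0.40 for GADD45B, 0.55 and 0.29 for PPP1R15A 202014_at, and 0.073 and 0.052 for 37028_at. With the poly-A block GADD45A gave 0.49 and 37028_at 0.021, and on linear means GADD45A gave 0.23.

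On leaving out each animal, the log2 difference of old from young adults ran from -0.32 to 0.065 for CDKN1A, -0.16 to 0.26 for PPP1R15A 202014_at and -0.17 to 0.016 for DDIT3. That of AD-like from old animals ran from -1.89 to 0.76 for GADD45A, -1.22 to 0.44 for GADD45B, -2.18 to 0.71 for PPP1R15A 202014_at and -0.39 to 0.34 for 37028_at. That of AD-like from young adults ran from -1.38 to 1.27 for GADD45A, -1.05 to 0.61 for GADD45B, -0.0091 to 0.37 for CDKN1A, -2.10 to 0.79 for PPP1R15A 202014_at and -0.51 to 0.22 for 37028_at. Where 1 AD-like animal was left out, the other was assumed to vary like the other groups.

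The animals' numbers in the labels name different animals and are not taken as pairs. Over 6 same-numbered young adult and old animals, deviations from the group means correlated by 0.06 to 0.47, above 0.1 in 5. Of the young adults, 2 of 6 correlated best with their own number. M1 and M2 of both groups had arrays of low mean signal, so these correlations cannot decide whether the numbers pair animals. The replicate block raised the AD-like against old count of all kept probe sets at an unadjusted p under 0.05 from 727 to 2292. Signals near background and 2 AD-like arrays limit the precision.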
